A study of Arabidopsis thaliana with 21 samples.

Results

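The 1 h response of Arabidopsis thaliana seedlings to the auxin indole-3-acetic acid (IAA) was described with a small molecule called compound B present. It was read from 6 of the 21 arrays of the study, the 3 arrays titled as treated with IAA and B and the 3 arrays titled as treated with B, and it covers all 22746 probe sets of the ATH1 array that are not controls. Seedlings of the accession Col-0 had been grown for 7 days in liquid culture in the light before treatment. B was given at 10 µM in both groups and IAA at 5 µM in the first, so the compound is common to both groups, which differ in IAA. Compound B carries the number 5763562 in the deposited experiment files, and its structure is not given here. The other groups used here were the solvent DMSO (n = 4), 5 µM IAA (n = 4), 10 µM of a further compound, A (n = 4), and IAA with A at those doses (n = 3). Each array was made from RNA of seedlings, so a gene read here is an average over roots and shoots. Nothing in the labels tells if the arrays within a group came from different cultures, so the p-values may rest on technical spread only.

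Auxin acts in the nucleus by bringing together a TIR1/AFB F-box receptor and an Aux/IAA repressor. The repressor is then degraded, and ARF transcription factors that it had held back change the expression of their target genes within minutes. The early targets include 3 well known families, the Aux/IAA genes themselves, the GH3 genes, whose enzymes couple IAA to amino acids, and the SAUR genes, whose small proteins promote cell expansion. In roots, LBD transcription factors act further along the same route at the start of lateral root formation.

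The values are log2 signals as deposited, so that a difference of 1 is a 2-fold change. The median SD of a probe set was 0.11 over the B arrays and 0.114 over the IAA plus B arrays, and across probe sets the arrays correlated at 0.993 or more within B and at 0.989 or more within IAA plus B. The number of arrays limits the precision: the median standard error (SE) was 0.11 for the IAA response with B present and 0.15 for its difference from the response without compound. Among the arrays with IAA alone, arrays 1 and 2 both lay above arrays 3 and 4 in 124 of the 128 probe sets that IAA raised at least 2-fold, against 20.7% of all probe sets. The experiment file of IAA array 2 names a treatment with B, against its title. GRX480, a glutaredoxin gene, read 10.26 to 10.66 on the B arrays and 5.18 on that array, beside 5.37 to 6.19 on the other IAA arrays. The counts that use the IAA arrays are therefore also given without IAA array 2. It is none of the 6 arrays of the main contrast, but the spread used there was estimated over all 21 arrays. At an adjusted p under 0.05 the main contrast gave 281 calls with IAA array 2 and 285 without it (263 higher, 22 lower). The files name 1 gene for 13513 of the probe sets, several for 503 and none for 8730, so many auxin genes could not be read by name. A listed gene is called measured below only where it could be read by name.

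IAA changed 281 of 22746 probe sets (1.24%) with B present, at an adjusted p under 0.05 in limma. Of these, 260 rose (1.14%) and 21 fell (0.0923%). The rises had a median of 1.05 log2 units, from 0.23 to 5.17, while the falls had a median of -0.58, from -0.33 to -1.07. A change of at least 2-fold was seen in 137 rises (0.602%) and in 1 fall (0.0044%). Of the rises, 49 reached 2 log2 units, 19 reached 3 and 3 reached 4. In all 281 the IAA plus B arrays lay wholly on 1 side of the B arrays. Such a separation was also seen in 14.8% of all probe sets, with 6.92% above and 7.88% below. The median difference over all probe sets was -0.018. At an unadjusted p under 0.05, 1885 probe sets passed.

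**Figure D1:**
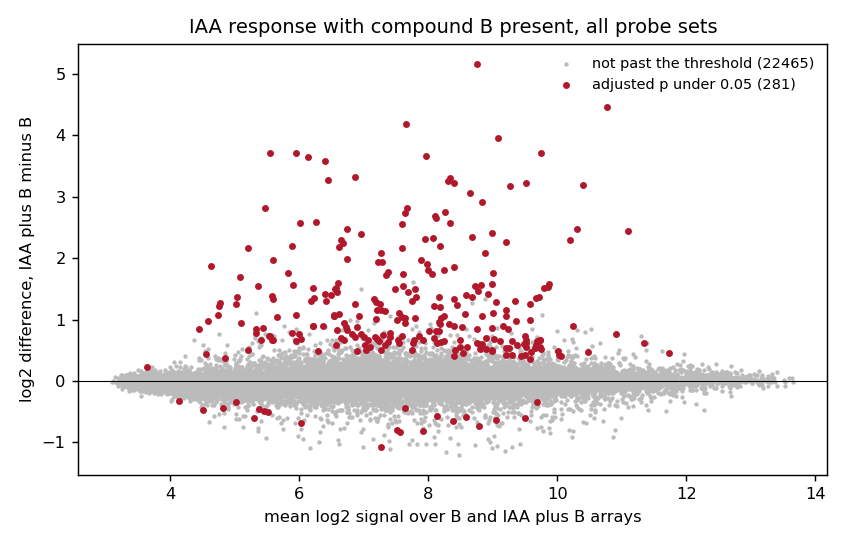
Log2 difference between IAA plus B and B (vertical axis) against the mean log2 signal over both groups (horizontal axis) for 22746 probe sets, with the 281 past an adjusted p of 0.05 in red. The red points lie almost wholly above 0, up to 5.17, and only 1 of them falls below -1.

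Aux/IAA repressor genes rose in part. Of the 7 that could be read by name, of 29 listed, 3 rose and none fell, with a list median of 0.58 against -0.018 over all probe sets. Over all probe sets 1.14% rose and 0.0923% fell, the shares to set beside the count of each list below. The lists were chosen with earlier results of these data known. IAA29 read 5.32, 5.47 and 5.90 on the B arrays and 9.21, 9.94 and 10.11 with IAA added. The groups were far apart, although IAA plus B array 1 was the lowest of its group, and the rise was 4.19 ± 0.25 log2 units (SE; adjusted p = 1.87e-09). IAA30 read 5.52, 5.47 and 5.68 with B and 7.73, 7.84 and 7.82 with IAA and B. Its arrays were close together within each group, and it rose by 2.24 ± 0.19 (adjusted p = 3.15e-07). IAA20 read 5.11, 5.19 and 5.21 against 5.70, 5.93 and 6.06, a smaller step without overlap, of 0.73 ± 0.15 (adjusted p = 0.00935). That call was lost without B array 1 or without IAA plus B array 3, where the adjusted p was up to 0.0722. IAA20 and IAA30 are unusual members of the family, since they lack the degron that auxin receptors bind in most Aux/IAA proteins. IAA34 stood at 0.58 ± 0.16 (adjusted p = 0.0867). Its readings were 5.10, 5.01 and 5.19 against 5.19, 5.84 and 6.03, so that IAA plus B array 1 touched the range of the B arrays. IAA18, IAA31 and IAA33 gave 0.00, 0.34 and -0.08, with the smallest adjusted p at 0.489.

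GH3 genes gave the largest rise with a gene name. Of 5 measured of 11 listed, 3 rose and none fell, and the list median was 2.57. GH3.3 read 8.53, 8.45 and 8.65 on the B arrays and 12.85, 13.16 and 13.00 on the IAA plus B arrays. All 3 treated arrays were over 4 units above the highest B array, and the rise was 4.46 ± 0.14 (SE; adjusted p = 5.44e-14), which is 22.0-fold. GH3.5 went from 8.05, 7.85 and 7.83 to 11.03, 11.40 and 10.96, a rise of 3.22 ± 0.19 (adjusted p = 1.91e-09). GH3.1 went from 4.81, 4.60 and 4.76 to 7.31, 7.36 and 7.22, a rise of 2.57 ± 0.22 (adjusted p = 3.15e-07). The 3 genes encode enzymes that conjugate IAA to amino acids and so lower its free level. GH3.17, which has the same activity, stood at 0.31 (adjusted p = 0.819), and GH3.9 at 0.10 (adjusted p = 0.917).

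Of the SAUR genes, 3 could be read. AT2G18010, which carries the synonym SAUR10, read 4.34, 4.23 and 4.35 with B and 7.90, 7.86 and 8.10 with IAA added. The groups did not come near each other, and the rise was 3.65 ± 0.22 (SE; adjusted p = 2.75e-09), 12.5-fold. SAUR57 (AT3G53250) and SAUR58 (AT1G43040) did not pass, at -0.42 and -0.23. HAT2 was the only gene read by name of the 8 HD-ZIP II factors listed, a family of homeodomain leucine zipper proteins that mostly repress transcription. It read 7.51, 8.09 and 8.02 on the B arrays and 11.61, 11.63 and 11.55 on the IAA plus B arrays. B array 1 was the lowest of its group, and the rise of 3.72 ± 0.17 (adjusted p = 8.96e-11), 13.2-fold, was 3.54 to 3.83 over the alternatives tried.

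Genes of lateral root initiation were raised as well. Of 10 factors listed 3 were measured, and 2 rose. LBD29 read 5.96, 5.67 and 5.68 with B and 8.44, 8.13 and 7.92 with IAA and B, a rise of 2.39 ± 0.25 (SE; adjusted p = 4.51e-06). LBD16 read 7.18, 6.90 and 7.01 against 8.87, 8.94 and 8.98, a rise of 1.90 ± 0.19 (adjusted p = 1.83e-06). Neither gene had overlapping groups. LBD16 and LBD29 are transcription factors that ARF7 and ARF19 switch on in the cells that found a lateral root. PUCHI, an AP2/ERF factor of the lateral root primordium, read 5.83, 5.65 and 6.07 against 6.26, 6.03 and 6.15. The groups overlapped, and the difference was 0.30 (adjusted p = 0.619). With IAA alone against DMSO all 3 genes were called higher, PUCHI by 0.76 (adjusted p = 0.00136 in limma).

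WAG2 was the only gene of the 21 listed for auxin transport that could be read by name. It encodes a protein kinase that phosphorylates PIN auxin efflux carriers. It read 6.57, 6.97 and 7.33 on the B arrays, which is a wide spread, and 8.08, 8.80 and 8.34 with IAA added. The rise was 1.45 ± 0.27 (SE; adjusted p = 0.00543), and it did not pass without B array 1 or without IAA plus B array 2, where the adjusted p was up to 0.0534.

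Of the 19 listed expansins and xyloglucan-remodelling enzymes, which loosen or rebuild the cell wall, 9 were measured. XTH19 and XTH16 rose, none fell, and the list median was 0.55. XTH19, an endotransglucosylase/hydrolase, read 8.47, 8.74 and 8.65 with B and 9.84, 9.87 and 9.63 with IAA and B. It rose by 1.16 ± 0.15 (SE; adjusted p = 0.000101) with no overlap. XTH16 read 8.98, 9.50 and 9.23 against 9.85, 9.60 and 9.91, a gap of only 0.10 between the nearest arrays. Its rise of 0.55 ± 0.13 (adjusted p = 0.0332) was lost in 6 of 15 alternatives, among them those without B array 1, B array 3, IAA plus B array 1 or IAA plus B array 3, with an adjusted p up to 0.239. EXPA8, XTH18 and EXPA4 stood at 0.78, 0.72 and 0.67, with adjusted p-values of 0.27, 0.255 and 0.21. With IAA alone against DMSO, 3 genes of the list were called higher, XTH19 (1.17), XTH18 (0.94) and EXPA4 (0.76). XTH16 stood at -0.01 there. Further genes of growth and the wall were looked up after their values had been seen. XTH33 rose by 1.15 ± 0.16 (adjusted p = 0.000161) and the expansin-like gene EXLA2 by 0.88 ± 0.17 (adjusted p = 0.00704). EXO, a gene of cell expansion, rose by 0.89 ± 0.17 (adjusted p = 0.00557). The EXO call did not pass without IAA plus B array 1, at an adjusted p of 0.0529, nor did that of EXLA2 without the same array or B array 2, at up to 0.062.

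**Figure D2:**
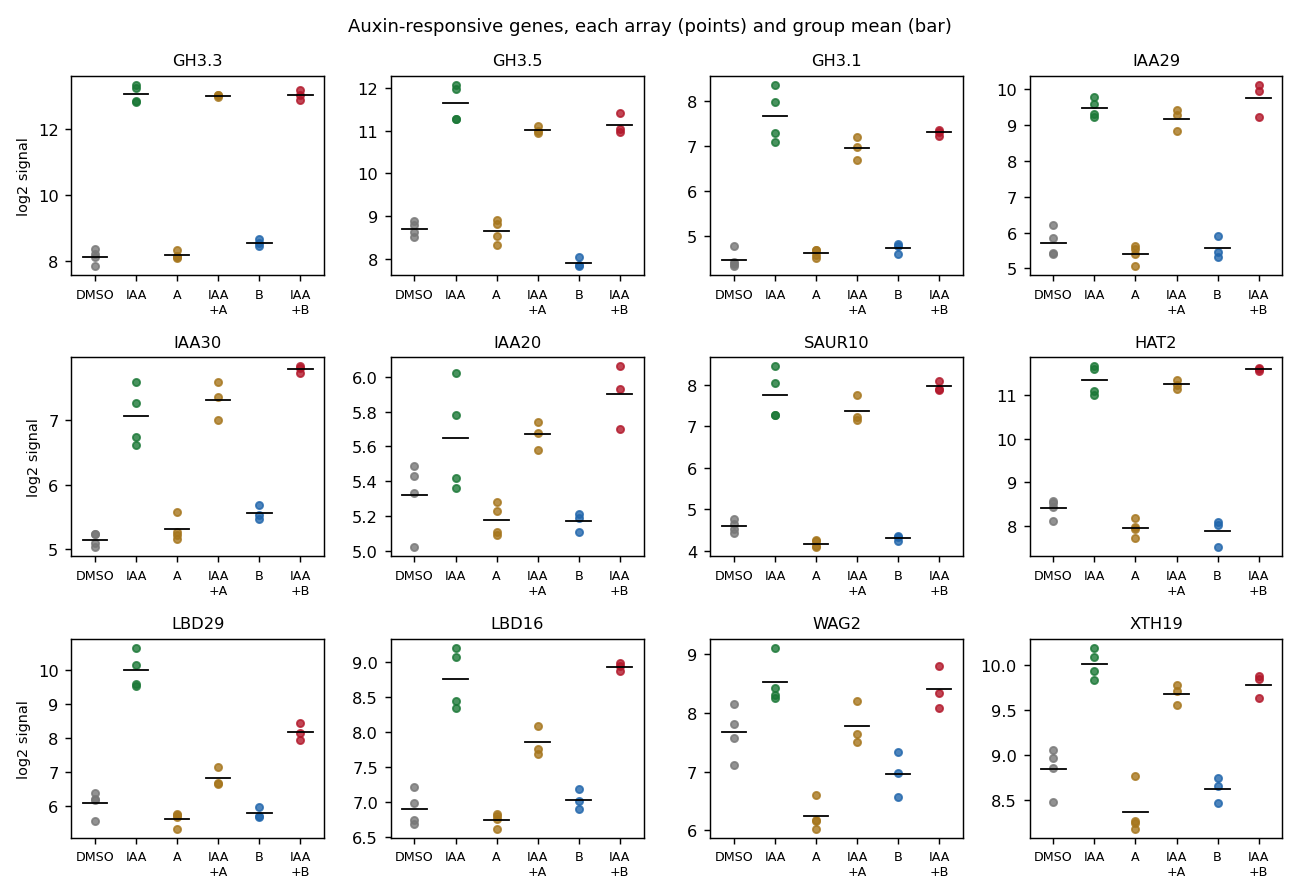
Log2 signal (vertical axis, a separate range in each panel) of 12 genes called higher with B present, in each array (points) with the group mean (bar), for DMSO, IAA, A, IAA plus A, B and IAA plus B. IAA20 and WAG2 were not called with IAA alone against DMSO (adjusted p = 0.275 and 0.0768 in limma). In all 12 panels the 3 IAA plus B arrays lie above the 3 B arrays, a separation that every called rise shows. LBD29 reads 7.92 to 8.44 with IAA and B against 9.53 to 10.65 with IAA alone.

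Most of the remaining genes among the 25 largest rises with a gene name are known here only by locus. AT5G62280 went from 7.24, 7.56 and 7.31 to 10.11, 10.31 and 10.43, a rise of 2.91 ± 0.22 (SE; adjusted p = 7.18e-08). P1R3 (AT3G29370) went from 4.02, 4.08 and 4.07 to 6.54, 7.15 and 6.93, a rise of 2.81 ± 0.29 (adjusted p = 4.49e-06). Both sets of arrays were clearly apart, with the B arrays of P1R3 within 0.06 of each other. AT3G50340 rose by 2.57, AT3G28420 by 2.48, AT5G12050 by 2.41, AT5G41400 by 2.35, AT4G09890 by 2.33 and AT3G42800 by 2.17. AT1G65920 rose by 1.98, AT3G60650 by 1.87, the bZIP transcription factor gene BZIP61 by 1.56, SETH6 by 1.55, AT5G50130 by 1.5, AT1G49200 by 1.5 and AT1G02660 by 1.40. The adjusted p-values of these 15 genes were at most 0.00736, that of AT1G49200. In AT3G60650 array 1 of IAA plus B read 4.83, below 5.97 and 5.87 on the other 2 arrays. AT1G49200 read 6.41, 7.18 and 6.60 against 8.07, 8.58 and 8.05, and its call did not pass without B array 1 or IAA plus B array 2, at an adjusted p up to 0.0668.

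A further 6 rises with a gene name were picked after their values had been seen. BAT1, an acyltransferase gene of brassinosteroid metabolism, rose by 1.34 ± 0.21 (SE; adjusted p = 0.000758). BZIP34, another bZIP factor, rose by 1.08 ± 0.18 (adjusted p = 0.00186), and the U-box ubiquitin ligase gene PUB25 by 0.88 ± 0.15 (adjusted p = 0.00167). JKD, a zinc finger factor of root tissue patterning, went from 6.34, 6.32 and 6.43 to 7.02, 7.16 and 6.88, a rise of 0.66 ± 0.12 (adjusted p = 0.0053). CLE44, which encodes a peptide signal of vascular stem cells, rose by 0.70 ± 0.17 (adjusted p = 0.0441), and CSLC04, a glucan synthase that makes the xyloglucan backbone, by 0.47 ± 0.10 (adjusted p = 0.0224). These last 2 calls were lost in 8 and 6 of 15 alternatives, leaving out any of the 6 arrays for CLE44 and any but B array 3 for CSLC04, with adjusted p-values up to 0.287 and 0.156. The probe set with the largest rise of all has no gene in the files. It read 5.90, 6.31 and 6.31 with B and 11.34, 11.33 and 11.36 with IAA and B, a rise of 5.17 ± 0.26 (adjusted p = 2.73e-10). Of the 25 largest rises only 7 have a gene name, and of all 260 rises 101 have.

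Of the 21 probe sets that fell, 10 have a gene name. AT2G44300 read 9.28, 9.11 and 9.08 on the B arrays and 8.36, 8.24 and 8.64 with IAA added, a fall of -0.74 ± 0.13 (SE; adjusted p = 0.00179). It was the only one of the 10 whose call held in every alternative tried. YUC4, a flavin monooxygenase gene of auxin synthesis, read 4.27, 4.43 and 4.21 against 4.01, 3.82 and 4.06. The groups were close but did not overlap, and the difference was -0.33 ± 0.07 (adjusted p = 0.0123). YUC4 was lost without B array 2, without IAA plus B array 2 and with only the 6 arrays fitted, at an adjusted p up to 0.183. Without compound it stood at -0.03 and with A at 0.00. The larger falls were AT1G11700 at -0.83, AT1G74870 at -0.80 and AT3G22970 at -0.65, followed by AT3G16560 at -0.57, AT2G31860 at -0.50, AT1G12320 at -0.48, AT4G10260 at -0.45 and AT1G63010 at -0.34. Their adjusted p-values ran from 0.00911 to 0.0433. The number of falls depended on single arrays more than that of rises did: it was 12 without IAA plus B array 2, 13 without IAA plus B array 1 and 14 without B array 3, and 26 without B array 2.

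The other lists held few calls or none. Of 6 measured genes of auxin synthesis and breakdown, out of 19 listed, none rose and YUC4 fell, with a list median of -0.28. The cytokinin response regulators ARR16 and ARR15, 2 of 13 genes listed, stood at 0.51 and 0.31, with adjusted p-values of 0.51 and 0.366. None of the 6 measured touch and rapid stress genes, of 13 listed, passed, with a range of -0.70 to 0.31 and a median of -0.22. GRX480 read 10.66, 10.39 and 10.26 with B and 10.21, 9.92 and 10.20 with IAA and B, and the calmodulin-like gene CML37 gave -0.29 (adjusted p = 0.776). The 19 detoxification genes, glutathione transferases and UGT73 glucosyltransferases, ran from -0.65 to 0.17 with a median of -0.16 and no call. The largest of these differences was that of GSTU22, from 10.57, 9.95 and 10.10 to 9.43, 9.78 and 9.48 (adjusted p = 0.407). B array 1 was high in that gene, and also in the small heat shock gene ATHSP22.0, which read 9.06 there and 7.63 and 7.96 on the other 2 B arrays. ATHSP22.0 and ROF2 (AT5G48570), the only 2 heat shock genes read by name, stood at -1.03 and -0.65, with adjusted p-values of 0.561 and 0.656.

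The 3 measured clock and cold genes, of 14 listed, did not pass, and array 1 of IAA plus B stood low in them. GI, a clock gene, read 7.71 there and 9.34 and 9.10 on the other 2 arrays, while AT4G33980 read 4.55 there and 6.83 and 6.31. Without that array, DMSO arrays 2 and 4 and A array 2, 298 probe sets were called in place of 281, with 232 in common. The tissue markers moved little. The root gene PYK10 read 13.30, 13.39 and 13.35 against 13.30, 13.29 and 13.44, and RCA, the Rubisco activase of green tissue, 13.12, 13.21 and 13.18 against 13.02, 13.18 and 13.23. The root hair expansins EXPA7 and EXPA18 gave 0.25 and 0.46, with adjusted p-values of 0.864 and 0.802. In RNA of seedlings, fewer cells of a type and less RNA per cell cannot be told apart. No gene of the lists of ARF factors, the auxin receptor machinery, ethylene, or brassinosteroid and gibberellin could be read by name.

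**Figure D3:**
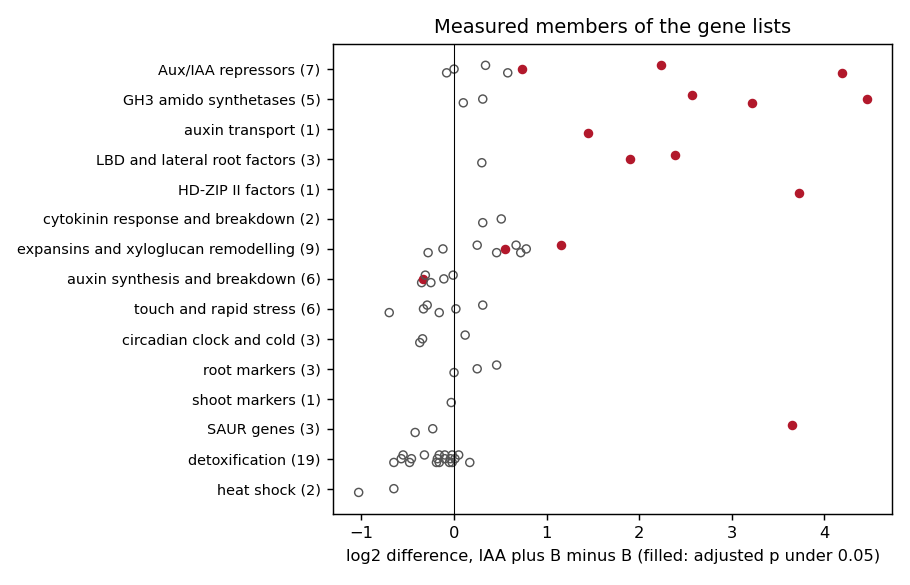
Log2 difference between IAA plus B and B (horizontal axis) for each measured member of 15 gene lists (rows, number of measured members in brackets), filled where the adjusted p is under 0.05. Filled points sit among the Aux/IAA, GH3, SAUR, LBD, HD-ZIP II, transport and wall lists, at 0.55 to 4.46, and YUC4 is the only filled point below 0.

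The response with B present was set beside the response to IAA without a compound, in which 326 probe sets rose (1.43%) and 109 fell (0.479%). The comparisons have no array in common, but their tests use the same estimate of spread for each probe set. A probe set with a small spread passes more easily in both, which favours shared calls. Both called 169 of the rises, which is 65% of the rises with B and 51.8% of those without compound. They shared 8 falls, 38.1% and 7.34% of the respective lists. Of the 281 probe sets changed with B present 277 had the same sign without compound, and none was called in the opposite direction. The share of equal signs over all probe sets is not given here. A further 91 rises with B present were not called without compound, a choice that favours a larger response with B than without. Of these, 89 were above 0 there, their median was 0.67 with B and 0.30 without, and the smallest adjusted p for a difference between both responses was 0.222. AT1G49200 was such a gene, at 1.5 with B and 0.32 without (difference 1.18, 95% confidence interval 0.37 to 2.00, adjusted p = 0.679), and so was JKD, at 0.66 and 0.08. Without IAA array 2, 211 probe sets rose and 35 fell without compound. Rises called in both responses then numbered 134, which is 51% of the rises with B and 63.5% of those without compound, and 129 rises with B were not called without compound (smallest adjusted p for a difference 0.218). Both called 2 falls. Leaving out IAA array 1 gave 222 rises, 35 falls, 138 shared rises and 2 shared falls, and leaving out DMSO array 4 gave 56 falls. Over all 8 DMSO and IAA arrays left out in turn, the shared rises ran from 134 to 168.

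The share called in both rose with the size of the response without compound. A larger response passes the threshold more easily, so this climb does not tell how B acts on small responses. Of the 88 probe sets that IAA alone raised by under 1.5-fold, 26 (29.5%) also rose with B present, and of the 110 raised 1.5-fold to under 2-fold, 48 (43.6%). The share was 62 of 92 (67.4%) from 2-fold to under 4-fold, 25 of 28 (89.3%) from 4-fold to under 8-fold and 8 of 8 at 8-fold or more. With A present the rises called in these classes numbered 20, 29, 50, 25 and 7. The medians without and with B were 0.43 and 0.28 in the first class, 0.77 and 0.57 in the second, 1.37 and 1.35 in the third, 2.45 and 2.94 in the fourth, and 3.82 and 3.80 in the fifth. The classes were cut on the response without compound, so the medians of that response are favoured by the choice. Without IAA array 2 the shares were 11 of 33, 36 of 68, 57 of 80, 24 of 24 and 6 of 6 over the same classes. The medians without and with B were then 0.44 and 0.25, 0.77 and 0.66, 1.31 and 1.45, 2.44 and 3.21, and 3.82 and 4.07.

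The probe sets that IAA alone changed at least 2-fold, 136 in number (0.598%) with 128 higher (0.563%) and 8 lower (0.0352%), had a median response of 1.5 without compound and 1.53 with B present. With a 1.5-fold threshold in its place, 288 probe sets entered, 145 of them called with B, and the medians were 0.97 without compound and 0.72 with B. Taken for each IAA plus B array against the B mean, the median was 1.45, 1.52 and 1.56 (SD 0.054, n = 3). Of the 128 raised, 95 (74.2%) also rose with B present and 93 were at least 2-fold higher. The response was larger with B in 71 and smaller in 57. Without IAA array 2, 114 probe sets formed the set, 87 of which were called, and the medians were 1.45 without compound and 1.65 with B present. Of the 110 raised, the response was then larger with B in 72 and smaller in 38. Single auxin genes differed in both directions, none past the threshold. GH3.3 rose by 4.46 with B and by 4.91 without, GH3.1 by 2.57 and 3.21, and LBD29 by 2.39 and 3.9. For HAT2 the values were 3.72 and 2.93, for IAA29 4.19 and 3.75, and for IAA30 2.24 and 1.91. The difference was -0.46 for GH3.3 (95% confidence interval -0.83 to -0.08, adjusted p = 0.831) and 0.79 for HAT2 (0.30 to 1.27, adjusted p = 0.574). It was largest among these genes for LBD29, at -1.51 (-2.21 to -0.82, adjusted p = 0.243 in limma).

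**Figure D4:**
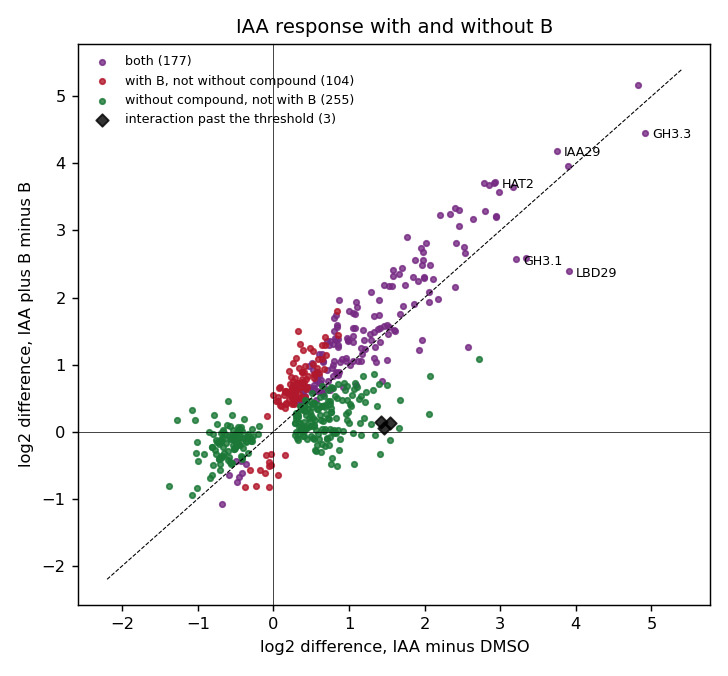
Log2 difference between IAA plus B and B (vertical axis) against that between IAA and DMSO (horizontal axis) for each probe set called in either comparison, with the dashed line at equal responses. The 177 called in both follow the line up to 5.17, with LBD29 and GH3.1 below it and HAT2 above, and the 3 probe sets past the threshold for a difference (diamonds) lie near 0 with B.

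The difference between the responses with and without B passed the threshold in 3 of 22746 probe sets (0.0132%), all of them raised by IAA alone and not called with B present. At an unadjusted p under 0.05, 1313 passed. AT2G28690 read 5.36, 5.38 and 5.49 with B and 5.49, 5.41 and 5.48 with IAA and B. In DMSO it read 5.68, 5.68, 5.59 and 5.70, and with IAA 7.51, 7.29, 6.79 and 6.88. The groups overlapped with B present and were far apart without it, and the response was 0.05 with B and 1.46 without, a difference of -1.41 (95% confidence interval -1.79 to -1.03, adjusted p = 0.00622). AT3G09280 read 5.82, 5.93 and 5.97 against 6.10, 5.98 and 6.07 with B present. Without compound it read 5.91, 5.28, 5.69 and 5.34 against 7.00, 7.18, 6.80 and 6.93. Its response was 0.14 with B and 1.42 without, a difference of -1.28 (-1.66 to -0.90, adjusted p = 0.0102).

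In AT4G37295 the level with B alone was already close to that with IAA. It read 7.83, 7.56 and 7.65 with B and 7.82, 7.86 and 7.78 with IAA and B. Without compound it read 6.66, 6.0, 6.46 and 6.60 in DMSO and 8.08, 8.43, 7.63 and 7.76 with IAA. The response was 0.14 with B and 1.54 without, a difference of -1.41 (95% confidence interval -1.88 to -0.93, adjusted p = 0.0424). That of AT2G28690 was not called without DMSO arrays 2 and 4, A array 2 and IAA plus B array 1 together, nor with only the arrays of these 4 groups fitted, at an adjusted p up to 0.102. AT3G09280 was not called in 5 of 22 alternatives, among them those without B array 2, B array 3 or IAA plus B array 2, at up to 0.146. AT4G37295 was not called in 12 of 23, among them those without DMSO array 3, IAA array 1 or any of the B and IAA plus B arrays, at up to 0.235. The number of such probe sets ran from 1 to 10 as each array was left out, at 1 without B array 2, B array 3 or IAA plus B array 2. It was 6 without DMSO array 4, 8 without IAA array 3, 9 without IAA array 4 and 10 without DMSO array 1, and it stayed at 3 without IAA array 2.

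**Figure D5:**
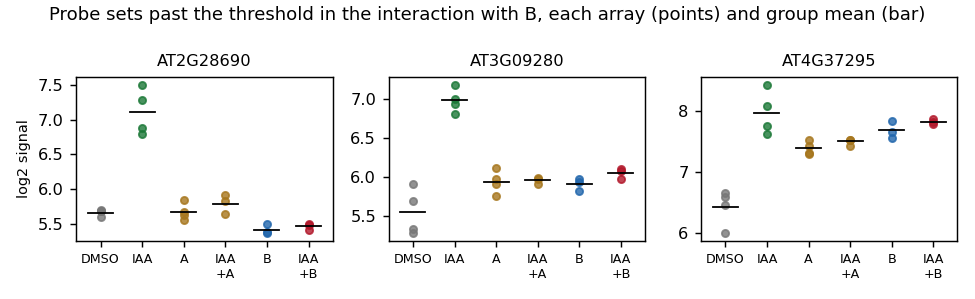
Log2 signal (vertical axis, a separate range in each panel) of AT2G28690, AT3G09280 and AT4G37295 in each array (points) with the group mean (bar) for the 6 groups. The IAA arrays lie above the DMSO arrays in each gene, while the IAA plus B arrays lie within 0.30 of the B arrays.

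Besides these, 30 of the 128 probe sets raised by IAA alone were not called with B present, so that 33 were not called in all. Their differences with B ran from -0.48 to 1.08, and 27 of the 33 were above 0. The mean with B alone exceeded that in DMSO in 23 of these 33 and in 27 of the 95 called. These responses share the B and DMSO arrays with that count. A high mean with B alone makes the response with B smaller, so the choice of the 33 favours a larger count among them. The counts were not tested, and the share over all probe sets is not given here. AT4G37290, a neighbouring locus of AT4G37295, read 10.67, 10.44 and 10.68 with B and 10.11, 10.27 and 10.43 with IAA and B. In DMSO it had read 5.25 to 6.95 and with IAA 7.19 to 7.81, so both groups with B lay above all arrays without a compound (difference between the responses -1.74, adjusted p = 0.306). AT2G32190 read 6.93, 6.88 and 6.70 against 6.57, 7.03 and 6.54 with B present, and 4.91 to 5.93 in DMSO against 6.43 to 7.25 with IAA. The difference between its responses was -1.66 (95% confidence interval -2.34 to -0.99, adjusted p = 0.0954). AT4G35200 and its neighbour AT4G35210, chosen after their values had been seen, still rose with B present, by 1.27 and 1.22, against 2.57 and 1.93 without. AT4G35210 did not pass without any 1 of the B arrays or without IAA plus B array 2, at an adjusted p up to 0.102.

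None of the 8 probe sets that IAA alone lowered at least 2-fold was called with B present, where 0.0923% of all probe sets were called lower. The 8 were chosen on the response without compound, which favours a smaller response with B. Their median was -0.23 with B and -1.05 without, and with B they ran from -0.94 to 0.32. AT2G44380 read 7.03, 6.65 and 6.32 with B and 7.04, 6.72 and 6.78 with IAA and B, against 8.05 to 9.63 in DMSO and 6.98 to 7.88 with IAA. The groups overlapped with B present, and its level with B alone was below that of every DMSO array. AT1G72200 stood at 0.18 with B and -1.03 without, and the plastid gene psbT at 0.32 and -1.07. The smallest adjusted p for a difference between the responses among these 8 was 0.306. Of all 109 probe sets lowered by IAA alone, 89 were below 0 with B present, where the median over all probe sets was -0.018. Without IAA array 2 only 4 were lowered at least 2-fold, with medians of -0.23 with B and -1.11 without, and none of them was called lower with B present. Their number was 1 without IAA array 1, 3 without DMSO array 4, 5 without DMSO array 2 and 20 without DMSO array 3.

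The response was also set beside that with compound A present, which shares no array with it but the same estimate of spread. There 172 probe sets rose (0.756%) and 17 fell (0.0747%). Both comparisons called 151 rises, 58.1% of those with B and 87.8% of those with A, and 2 falls. No probe set passed for a difference between the responses with B and with A, where the smallest adjusted p was 1 in limma and 782 passed at an unadjusted p under 0.05. Fitting only the arrays of these 4 groups gave 2, and leaving out array 3 of IAA plus A gave 11. The set raised or lowered at least 2-fold by IAA alone had a median response of 1.19 with A, against 1.53 with B. LBD29 rose by 2.39 with B and by 1.20 with A, a difference of 1.19 (95% confidence interval 0.47 to 1.90). LBD16 rose by 1.90 and 1.09, a difference of 0.81 (0.27 to 1.34), and GH3.5 by 3.22 and 2.37, a difference of 0.84 (0.29 to 1.40). GH3.3 gave 4.46 and 4.82, IAA29 4.19 and 3.77, and WAG2 1.45 and 1.54. AT2G28690, AT3G09280 and AT4G37295 stood at 0.12, 0.02 and 0.11 with A, beside 0.05, 0.14 and 0.14 with B.

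The rises called with B, with A and without a compound numbered 123, of which 38 have a gene name, and 2 falls were called in all 3. Without IAA array 2 the shared rises numbered 106. Genes above 1 log2 unit in each of the 3 responses included GH3.3, GH3.5, GH3.1, IAA29, IAA30, HAT2, SAUR10, XTH19, LBD29 and LBD16.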

How the data were processed

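RNA of seedlings was measured on ATH1 arrays in 21 samples. The authors deposited log2 signals, 1 for each probe set in each sample. Their probe summary and normalisation are not given in the sources used here, and no further scaling was applied. Of 22810 probe sets, 64 controls were left out. Genes came from the platform's probe annotation and symbols from RefSeq (assembly TAIR10.1 for names only); 13484 probe sets matched a locus. Group means over the 21 arrays were modelled in limma 3.58.1 (R 4.3.3; lmFit and eBayes with intensity trend), with two-sided tests and Benjamini-Hochberg adjustment over 22746 probe sets at 0.05. The contrasts were IAA plus B minus B, and this response minus those of IAA minus DMSO and of IAA plus A minus A. Genes with 1 gene per probe set were named by rule: the 25 largest rises and 15 largest falls, all members of the Aux/IAA, GH3, SAUR, LBD and HD-ZIP II lists, up to 4 called members of other lists or 2 uncalled, all probe sets past the threshold in the interaction, and the 10 smallest responses with B among those changed 2-fold by IAA. The members and lists were chosen with earlier results of these data known. The alternatives were other scaling, filters, moderation, array weights, a replicate block, stricter thresholds, averaging per gene and leaving out arrays; those on the DMSO and IAA arrays of the response without compound and on arrays that stand apart were chosen after seeing the data. The scripts were tested on simulated data. Replicate numbers 1 to 3 of B and IAA plus B had correlated deviations of 0.18, 0.03 and 0.01, so they were not taken as pairs.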

Additional observations from a re-analysis of the deposited data

Results flagged for a closer look

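The IAA response with B present differed from that without compound, by a test of the difference itself, in 3 probe sets. The log2 difference between the responses was -1.41 for AT2G28690, -1.28 for AT3G09280 and -1.41 for AT4G37295. Each was raised by IAA alone, in 4 of 4 arrays above every DMSO array, and was not called with B present. IAA array 2, whose experiment file names another treatment than its title, enters these differences.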

How the results depend on the processing

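The IAA response with B present gave 281 calls, 138 when at least 2-fold was also required and 104 after averaging probe sets per gene. It gave 219 to 236 as each of its arrays was left out. As each DMSO or IAA array was left out, which alters only the estimate of spread, it gave 253 to 280 rises and 21 to 32 falls. It gave 296 with quantile scaling, 218 in the upper 60% of probe sets by signal, 280 with only its arrays (31 lower, 229 in common), 291 without the intensity trend, 284 with robust moderation, 360 with array weights (40 lower) and 199 at adjusted p 0.01. With a replicate block for the array number, which did not pair the arrays, 311 passed (273 higher, 38 lower, 273 in common), and the interaction gave 7. The interaction of IAA with B, at 3 calls, gave 5 with robust moderation, 10 with array weights, 6 per gene, and 1 to 10 as each array was left out. It gave 0 among the upper 60% of probe sets by signal (820 at an unadjusted p under 0.05), 0 with only the arrays of the groups compared (1313) and 0 (1386) with arrays 2 and 4 of DMSO, 2 of A and 1 of IAA plus B left out, an alternative chosen after seeing the data. The difference from the response with A, at 0 calls, gave 2 with only the arrays compared and 0 to 11 as each array was left out. The median of the IAA-responsive set with B present, 1.53, was 0.72 with a 1.5-fold threshold (288 probe sets, 0.97 without compound), which admits smaller responses, and 1.65 without IAA replicate 2. It ran from 1.49 to 1.55 as each B and IAA plus B array was left out and from 1.42 to 1.65 as each DMSO and IAA array was, the latter chosen after seeing the data. The cause of the other shifts was not tested. Over the named genes, 872 recomputed values kept their side of the threshold, 95 were no longer past it and 4, all of IAA34, newly passed. Of the results past the threshold in the main fit, 0 changed direction. Direction was not compared for the others. For LBD16 the difference between the responses with and without B, 0.05 in the main fit, ran from -0.1 to 0.34. Scan dates are not given in the files used and all arrays share 1 lot, so the planned batch alternative was not run.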
